A study of Mus musculus with 6 samples.

Results

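The genes that place peptides on MHC class I molecules were followed in the mouse melanoma line B16F10, which makes pigment and is known for low MHC class I on its surface. The set held 10 genes, matched by symbol among the 54838 genes counted: the transcriptional activator Nlrc5, the heavy chains H2-K1, H2-D1 and H2-T23, the light chain B2m, the peptide transporter subunits Tap1 and Tap2, the loading factor Tapbp, and the immunoproteasome subunits Psmb8 and Psmb9. RNA was sequenced from 6 samples, 3 labelled GSK126, given at 10 µM, and 3 labelled DMSO, the vehicle. GSK126 inhibits EZH2, the enzyme of Polycomb repressive complex PRC2 that methylates histone H3 at a lysine associated with silent genes. All libraries came from the same line, and the labels give no genetic change in either group. How long the cells were treated was not stated, nor whether each replicate was its own culture. The p-values therefore reflect the variation among these 6 samples, and that variation may be technical.

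MHC class I molecules show fragments of a cell's own proteins to CD8 T cells. Proteasomes cut the proteins, the TAP transporter carries the peptides into the endoplasmic reticulum, and tapasin and its partners help them onto a heavy chain paired with B2m. NLRC5 is an activator of class I genes that acts with the RFX, CREB-type and NF-Y factors bound at a compound promoter element, the X2 and Y boxes among its parts, and interferons raise the whole pathway, in part through IRF factors.

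Motifs of the kind found in that element were searched in RefSeq promoter windows of GRCm38.p6, which cover the 250 bases before the RefSeq start site for 8 of the 10 genes. The windows of H2-D1, Tapbp, Psmb8 and Psmb9 lay wholly within the span of the gene as counted, and that of H2-T23 partly. A match or its absence there concerns the RefSeq start only, not other annotated starts. The H2-K1 and B2m windows are shown because one belongs to a gene higher in every GSK126 library and the other to a gene whose groups overlapped. For H2-K1, which has 2 RefSeq start sites there, the window is the outer one, on the minus strand at chr17:34000348-34000597. That of B2m is on the plus strand at chr2:122147437-122147686. Capitals mark the letters GAANNGAAA of an interferon response factor core, TGACG of the X2 type and CCAAT of the Y type, each searched on both strands.
H2-K1: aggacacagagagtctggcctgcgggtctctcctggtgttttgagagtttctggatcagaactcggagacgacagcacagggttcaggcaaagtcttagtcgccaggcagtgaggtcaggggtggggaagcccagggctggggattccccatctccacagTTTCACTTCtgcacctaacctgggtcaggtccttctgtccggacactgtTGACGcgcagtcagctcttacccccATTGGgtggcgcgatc
B2m: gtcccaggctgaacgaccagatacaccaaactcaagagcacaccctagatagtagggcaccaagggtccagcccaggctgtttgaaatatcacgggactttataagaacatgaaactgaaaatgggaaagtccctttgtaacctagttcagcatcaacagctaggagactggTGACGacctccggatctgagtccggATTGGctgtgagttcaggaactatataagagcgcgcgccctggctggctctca

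In both windows TGACG is followed by ATTGG, the reverse complement of CCAAT, with starts 25 bases apart. The H2-D1 window had the pair at the same distance, so the 30-base stretches are set side by side, with TGACG and ATTGG in capitals, at chr17:34000359-34000388 (minus strand) for H2-K1, chr17:35262993-35263022 (plus strand) for H2-D1 and chr2:122147609-122147638 (plus strand) for B2m.
H2-K1 pair: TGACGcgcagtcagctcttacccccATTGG
H2-D1 pair: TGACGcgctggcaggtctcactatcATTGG
B2m pair: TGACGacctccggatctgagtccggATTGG
The 20 bases between the paired motifs were identical at 13 positions between H2-K1 and H2-D1, at 3 between H2-K1 and B2m, and at 2 between H2-D1 and B2m.

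This spaced pair was chosen after the sequences were seen. It occurred in 30 of the 32851 promoter windows (0.0913%), whereas TGACG anywhere was found in 17.8% and CCAAT anywhere in 33.8%. Among the 8 genes with a window, TGACG was found for H2-K1, H2-D1, B2m, Tap1 and Psmb9, and GAANNGAAA, present in 6.31% of all windows, for H2-K1 and H2-D1. Only that exact spacing was searched. The B2m window holds gaaactgaaa, in which GAA and GAAA stand further apart, so it was left unmarked. Wider spacings were not searched in any window, and B2m cannot be said to lack such a core. The same TGACG, at chr17:34187470-34187474, served both the Tap1 and the Psmb9 window, since these genes lie head to head. The Tap1 and Psmb9 windows did not hold the spaced pair, H2-T23 and Tapbp had CCAAT without TGACG, and Psmb8 had neither. The NF-kappaB core, present in 45.8% of all windows, was found for H2-K1, H2-D1, B2m, Tap1 and Psmb9. A match describes letters in a window and says nothing of binding.

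The 6 libraries held 13594939 to 14713373 counted reads, and 13601 genes were tested. By edgeR's quasi-likelihood test with Benjamini-Hochberg adjustment at 0.05, 1503 of those genes (11.1%) differed, 798 higher with GSK126 (5.87%) and 705 lower (5.18%). Ezh2 itself averaged 193 ± 3.47 CPM (reads scaled to library size) in GSK126 libraries and 189 ± 4.83 CPM in DMSO libraries (SD, n = 3 each; log2 fold change 0.03, SE 0.04, adjusted p = 0.669), and since GSK126 acts on the enzyme, the transcript is no check of the labels. Of the 4 core PRC2 genes none was called by edgeR, DESeq2 or limma-voom, while 1 was higher and 1 lower at an unadjusted p under 0.05. Of all tested genes 14.4% were higher and 13.1% lower at that unadjusted threshold. The log2 fold changes were 0.19 for Ezh1, -0.21 for Eed and -0.30 for Suz12, the last -0.05 without GSK126 replicate 3 (131 CPM there, 245 to 263 CPM in the other 5 libraries). GSK126 replicate 3 stood apart from the other GSK126 libraries along the second principal component, which held 18.7% of the variance, and values without it are given where they change a call. Melanocyte markers were abundant, with 330453 to 343405 summed reads over 7 genes in GSK126 libraries and 288402 to 307133 in DMSO libraries. Mitf, Pmel, Sox10 and Dct rose and Mlana fell. With 1 library left out, Mitf and Pmel stayed called, Sox10 and Dct were lost without any 1 library other than GSK126 replicate 3 (adjusted p up to 0.127 for Sox10 and 0.138 for Dct), and Mlana without GSK126 replicate 1, DMSO replicate 1 or DMSO replicate 2 (up to 0.0934). On the FPKM scales Pmel, Mlana and Dct were not called (up to 0.296), and the abundant Tyrp1 differed by -0.08 on the log2 scale (not called). Of the 10 leukocyte markers, 5 had no read in any library, and their summed reads were 47 to 62 in GSK126 libraries and 26 to 47 in DMSO libraries, mostly from Cd68. Ptprc, the defining leukocyte marker, had 14 reads in GSK126 replicate 3 and none in the other 5 libraries. Summed fibroblast markers had 245 to 313 reads in GSK126 libraries and 309 to 346 in DMSO libraries, mostly Col1a2. None of 3 tested genes was called by any of the 3 tools, and 1 was lower at an unadjusted p under 0.05, against 13.1% of all tested genes. Endothelial markers summed to 3 to 10 reads in GSK126 libraries and 4 to 9 in DMSO libraries, and keratinocyte markers to 0 in GSK126 libraries and at most 2 in DMSO libraries, with 4 of 5 genes at 0 throughout in each list. The part of these markers in the class I results was not tested.

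With GSK126, 2 of the 9 class I genes tested rose, Nlrc5 and Tap2, and none fell. Of all tested genes 5.87% rose and 5.18% fell. Without adjustment 4 of the 9 had p under 0.05, all higher. At that threshold 14.4% of all tested genes were higher and 13.1% lower, and the unadjusted counts of the lists below stand against these shares. DESeq2 called 3 higher and limma-voom 2, and neither called any lower. The log2 fold change was positive for 8 of the 9 genes, against 49.9% of all tested genes, and the median over the 9 was 0.34, against -0.001 over all genes. Libraries of the groups did not overlap for Nlrc5, H2-K1, Tap2 and Tapbp, each above DMSO, as held for 17.6% of all tested genes. In bulk RNA, a change in the number of cells expressing a gene and a change in RNA per cell cannot be told apart.

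**Figure D1:**
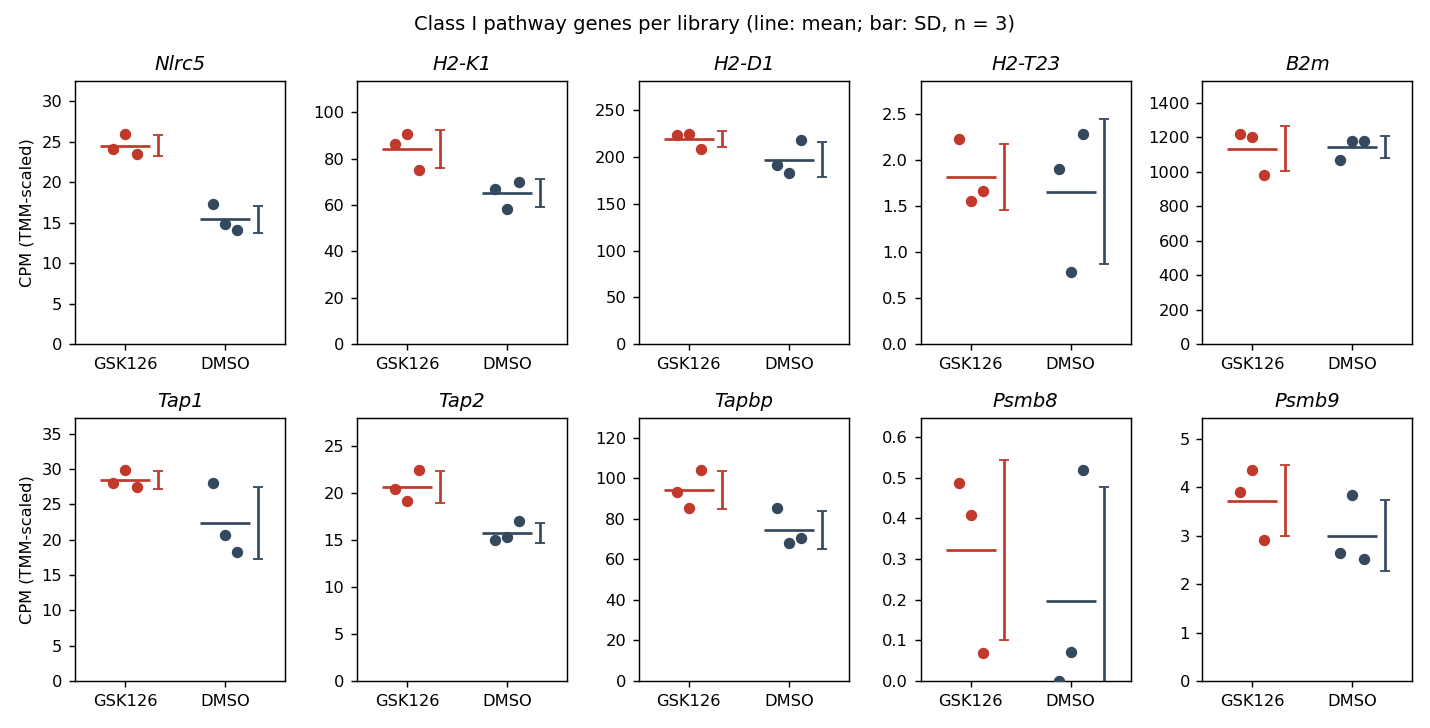
CPM of the 10 class I genes in each library, with GSK126 left of DMSO, a line at the mean and a bar for the SD (n = 3). The GSK126 points lie above all DMSO points for Nlrc5, H2-K1, Tap2 and, narrowly, Tapbp, and the groups overlap for the other 6 genes.

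Nlrc5, the activator that gives class I promoters much of their constitutive activity, changed most of the tested set. The gene (chr8:94434356-94527272, GRCm38) had 345, 383 and 338 reads in GSK126 libraries, against 236, 210 and 191 in DMSO libraries, which gives 24.1, 26.0 and 23.5 CPM in GSK126 libraries and 17.3, 14.9 and 14.1 CPM in DMSO libraries. The lowest GSK126 library lay above the highest DMSO library by more than the spread of either group. Nlrc5 rose by a log2 fold change of 0.67 (SE 0.10, edgeR adjusted p = 0.00874), a 1.59-fold difference with a 95% interval of 1.35 to 1.87. The call held with any 1 library left out, at adjusted p-values between 0.0175 and 0.0445. Summing its reads with the few of 9330175E14Rik, which shares 78 exonic bases on the opposite strand, gave a log2 fold change of 0.64 (adjusted p = 0.0123).

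Among the heavy chains, which carry the peptide groove, none of the 3 genes passed the test, and H2-K1 came closest. H2-K1 (chr17:33996017-34000333) had 86.4, 90.7 and 74.9 CPM in GSK126 libraries, against 66.8, 58.4 and 69.9 CPM in DMSO libraries. Each GSK126 value was higher than each DMSO value, with GSK126 replicate 3 the nearest to them. Its log2 fold change was 0.37 (SE 0.10, edgeR adjusted p = 0.0502), and the 95% interval of the fold ran from 1.11 to 1.51. DESeq2 called it (adjusted p = 0.0103), as did edgeR without GSK126 replicate 3 (log2 fold change 0.45, adjusted p = 0.0275).

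H2-D1 (chr17:35262730-35267499), the other classical heavy chain, had 224, 225 and 209 CPM in GSK126 libraries and 191, 183 and 218 CPM in DMSO libraries. DMSO replicate 3 lay among the GSK126 libraries. The log2 fold change of 0.15 (SE 0.07) did not pass (adjusted p = 0.230 by edgeR), and the interval of the fold, 0.987 to 1.25, held both no difference and a rise. H2-T23 (chr17:36029773-36032855), which encodes the non-classical Qa-1 molecule that presents to NK receptors, had 32, 23 and 24 reads in GSK126 libraries and 26, 11 and 31 in DMSO libraries. At this depth a difference was not detectable, since the interval of the fold ran from 0.591 to 2.04 (adjusted p = 0.854 by edgeR).

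Heavy chain genes share stretches of sequence, and the counting could split reads from these. Of the distinct 50-base stretches in their annotated transcripts, 9.6% of those of H2-K1, 12.8% of those of H2-D1 and 14.5% of those of H2-T23 occur in another gene. The share was 36.4% for H2-Q4 and 53.5% for H2-T22. Summed over all 16 annotated H2-K, H2-D, H2-L, H2-Q and H2-T genes, of which 11 had reads, the level was 418 ± 21.2 CPM in GSK126 libraries and 360 ± 27.5 CPM in DMSO libraries (SD, n = 3 each). H2-Bl, Gm8909, Gm11131 and A930015D03Rik, which share stretches with genes of the sum, are not in it, so reads split with them are not recovered. The log2 fold change of the sum was 0.22 (SE 0.07, edgeR adjusted p = 0.0795), and DESeq2 put its adjusted p at 0.0491. H2-D1 made up 53.7% of the sum, and without it the log2 fold change was 0.29 (SE 0.07, adjusted p = 0.0399), a split chosen after the values were seen.

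B2m (chr2:122147686-122153083), the light chain shared by all class I molecules, averaged 1130 ± 131 CPM in GSK126 libraries and 1140 ± 64.2 CPM in DMSO libraries (SD, n = 3 each). It had 1220, 1200 and 982 CPM in GSK126 libraries, against 1070, 1180 and 1180 CPM in DMSO libraries. GSK126 replicates 1 and 2 were the highest of the 6 and GSK126 replicate 3 the lowest. The log2 fold change was -0.01 (SE 0.09, edgeR adjusted p = 0.944), and the interval of the fold, 0.861 to 1.14, did not reach the 1.59-fold of Nlrc5. Without GSK126 replicate 3 it was 0.08 (SE 0.05, adjusted p = 0.374).

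Of the transporter subunits, Tap2 rose and Tap1 did not pass. Tap2 (chr17:34203527-34216321) had 20.4, 19.1 and 22.4 CPM in GSK126 libraries, against 15, 15.3 and 17 CPM in DMSO libraries. The groups did not overlap, and the log2 fold change was 0.38 (SE 0.10, edgeR adjusted p = 0.0458; fold 1.30, 95% interval 1.12 to 1.53). The call stood close to the threshold: it was lost with any 1 of the 6 libraries left out (adjusted p from 0.065 to 0.147) and in DESeq2 (0.064), while the log2 fold change stayed between 0.32 and 0.44 with 1 library left out.

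Tap1 (chr17:34187553-34197225) had 28, 29.8 and 27.4 CPM in GSK126 libraries, against 28, 20.7 and 18.3 CPM in DMSO libraries. DMSO replicate 1 was as high as the GSK126 libraries, and the other DMSO libraries were lower. The log2 fold change was 0.35 (SE 0.15, edgeR adjusted p = 0.195; interval of the fold 0.991 to 1.63), and without DMSO replicate 1 it was 0.54 (adjusted p = 0.0432). Whether the log2 fold changes of Tap1 and Tap2 differ was read from their ratio, which averaged 0.958 ± 0.117 in GSK126 libraries and 0.989 ± 0.276 in DMSO libraries per exon length (SD, n = 3 each; exact two-sided permutation p = 1, the smallest possible being 0.1).

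Tapbp (chr17:33915899-33929292) encodes tapasin, which bridges TAP and the empty heavy chain. It had 93.5, 85.5 and 104 CPM in GSK126 libraries, against 85.2, 67.9 and 70.7 CPM in DMSO libraries. The lowest GSK126 value and the highest DMSO value were almost the same. The log2 fold change of 0.34 (SE 0.11; interval of the fold 1.06 to 1.5) missed the threshold in edgeR (adjusted p = 0.0861) and passed in DESeq2 (0.0364). Tapbp shares 904 exonic bases with Gm19412 on the opposite strand and 149 with Zbtb22 on the same strand, and summed with both its log2 fold change was 0.25 (SE 0.08, adjusted p = 0.0873).

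The immunoproteasome subunits Psmb8 and Psmb9, which replace constitutive catalytic subunits and change which peptides are cut, were scarce in both groups. Psmb8 (chr17:34197721-34201454) had 7, 6 and 1 reads in GSK126 libraries and 0, 1 and 7 in DMSO libraries, too few to be tested. Psmb9 (chr17:34181988-34187764) had 56, 64 and 42 reads in GSK126 libraries and 36, 54 and 34 in DMSO libraries, and the groups overlapped. Its log2 fold change was 0.31 (SE 0.24, edgeR adjusted p = 0.442; interval of the fold 0.844 to 1.82). Psmb9 shares 212 exonic bases with Tap1 on the opposite strand, and Tap1 had 2155 reads over all libraries against 286 for Psmb9, so without a stated strand setting part of the Psmb9 reads cannot be told apart from Tap1.

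Levels of the 10 genes were compared with each other only per length. The deposited FPKM rest on a length that exceeded the merged GENCODE M21 exons of the gene, by 2.47 times for H2-K1, 2.23 for H2-T23 and 2.14 for Tap1, but not for B2m (1.0). Over 10484 genes the median ratio was 1.356. Levels are therefore given as reads per kilobase of merged exons, scaled to library size, with the deposited FPKM beside them where the order depends on the scale. B2m was by far the highest, at 1320 ± 158 in GSK126 libraries and 1330 ± 70.6 in DMSO libraries (SD, n = 3 each). By deposited FPKM in DMSO libraries it ranked 21 among 21407 genes listed above 0. H2-D1 followed at 85.1 ± 3.87 in GSK126 libraries and 76.4 ± 6.88 in DMSO libraries, and H2-K1 at 28.6 ± 2.87 and 22.1 ± 1.97 in the same groups.

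Tapbp, at 26.0 in GSK126 libraries and 20.5 in DMSO libraries, did not differ from H2-K1 beyond the spread, and by deposited FPKM it stood above H2-K1 (13.7 against 11.6 in GSK126 libraries, 10.8 against 8.93 in DMSO libraries). Tap2 (5.45 in GSK126 libraries, 4.17 in DMSO libraries) and Tap1 (5.19 and 4.08 in the same groups) likewise did not differ beyond their spread per merged exons. By deposited FPKM Tap2 stood above Tap1 (3.85 ± 0.297 against 2.42 ± 0.111 in GSK126 libraries, 2.94 ± 0.188 against 1.9 ± 0.439 in DMSO libraries). Per merged exons, Nlrc5 came next (2.89 ± 0.156 and 1.82 ± 0.202). Psmb9 (1.02 and 0.818) and H2-T23 (0.632 and 0.574) were lower again, and Psmb8 was lowest (0.0955 and 0.0578). Among 13965 protein-coding genes listed above 0 in DMSO libraries, the merged-exon level of B2m stood at percentile 99.9, that of H2-D1 at 96.9, of H2-K1 at 84.1, of Tap2 at 43.6, of Nlrc5 at 31.1, of Psmb9 at 24.8 and of Psmb8 at 10.9. The libraries held abundant B2m and H2-D1 transcripts beside very few transcripts of Psmb8 and Psmb9. Psmb10, an inducible subunit outside the 10 genes, was not as scarce, at 6.3 ± 0.777 in GSK126 libraries and 7.39 ± 0.311 in DMSO libraries.

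**Figure D2:**
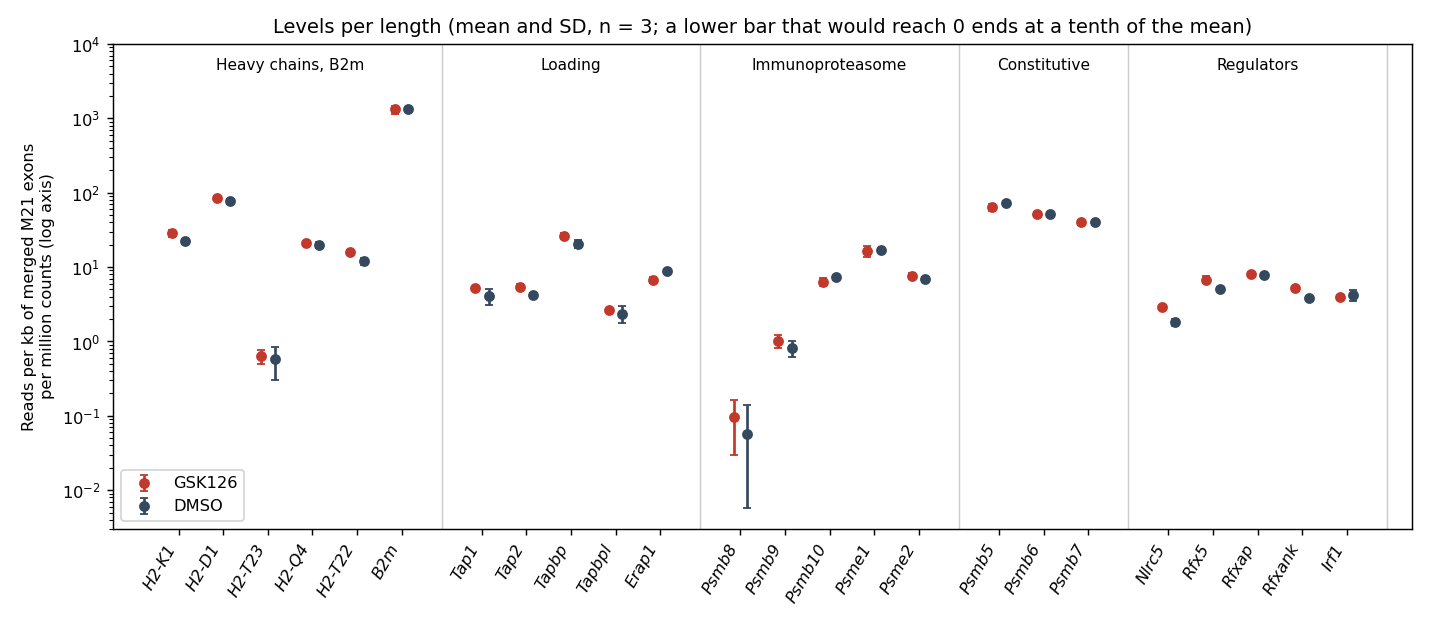
Reads per kilobase of merged exons, scaled to library size (log axis) for class I genes and their partners in GSK126 and DMSO libraries, as mean and SD (n = 3). B2m stands at 1320 and 1330, H2-D1 near the constitutive proteasome subunits, and Psmb8 at 0.0955 and 0.0578.

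The balance of subunits was described by ratios of the merged-exon levels, and their size depends on the length used. B2m exceeded H2-K1 by 46.0 ± 1.92 times in GSK126 libraries and by 60.4 ± 7.40 times in DMSO libraries, and H2-D1 by 15.5 ± 1.18 and 17.4 ± 1.6 times in the same groups (SD, n = 3 each). H2-D1 exceeded H2-K1 by 2.98 ± 0.178 times in GSK126 libraries and by 3.46 ± 0.181 times in DMSO libraries. By deposited FPKM, B2m exceeded H2-K1 by 114 times in GSK126 libraries and 150 times in DMSO libraries. In the same groups and on that scale, B2m exceeded H2-D1 by 18.6 and 21 times, and H2-D1 exceeded H2-K1 by 6.13 and 7.11 times. The H2-D1 to H2-K1 and B2m to H2-K1 ratios were lower in every GSK126 library than in any DMSO library, which gives the smallest exact two-sided permutation p that 3 against 3 allow, 0.1 (0.25 after Benjamini-Hochberg adjustment over 5 ratios). Psmb9 reached 0.0195 ± 0.00268 of the level of Psmb6, the constitutive subunit it replaces, in GSK126 libraries and 0.0160 ± 0.00385 in DMSO libraries (exact permutation p = 0.2). Psmb10, the third inducible subunit, reached 0.158 ± 0.0169 of its counterpart Psmb7 in GSK126 libraries and 0.185 ± 0.00884 in DMSO libraries. By deposited FPKM the Psmb10 to Psmb7 ratio was 0.0693 in GSK126 libraries and 0.0811 in DMSO libraries.

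Of 21 further class I heavy chain and class I-like genes, 10 were tested, with a median log2 fold change of 0.12. Of these 2 rose, against 5.87% of all tested genes, and none fell. At an unadjusted p under 0.05 the counts were the same, and DESeq2 called 1 higher and limma-voom 2, neither any lower. H2-T22, a non-classical heavy chain recognised by some gamma delta T cells, had 56.9, 51.8 and 53.4 CPM in GSK126 libraries and 40.7, 36.0 and 45.1 CPM in DMSO libraries. It rose by 0.41 on the log2 scale (SE 0.09, edgeR adjusted p = 0.0339), a call lost without any 1 library other than DMSO replicate 3 (adjusted p up to 0.102). Of its 50-base stretches, 53.5% occur in other genes. Cd1d1, which presents lipids to NKT cells, had 21, 16 and 20 reads in GSK126 libraries and 5, 5 and 1 in DMSO libraries. Its groups were far apart for so few reads, and it rose by 2.26 on the log2 scale (SE 0.44, adjusted p = 0.0206), a call lost without GSK126 replicate 1, DMSO replicate 1 or DMSO replicate 2 (adjusted p up to 0.0688). H2-Q4, with the most reads of the list, had a log2 fold change of 0.10 (SE 0.09, adjusted p = 0.500), and 6 of the 21 genes had no read in any library.

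Among 11 genes of peptide loading and trimming, all tested, 1 rose and 1 fell, against 5.87% and 5.18% of all tested genes. At an unadjusted p under 0.05, 2 were higher and 2 lower, and DESeq2 and limma-voom each called 1 higher and 1 lower. Calr, the chaperone calreticulin of the loading complex, had 2060, 2140 and 1990 CPM in GSK126 libraries and 1850, 1820 and 1880 CPM in DMSO libraries (log2 fold change 0.16, SE 0.04, edgeR adjusted p = 0.0461). Erap1, the aminopeptidase that trims peptides in the endoplasmic reticulum, fell to 44.3, 48.8 and 53.7 CPM in GSK126 libraries, against 63.4, 63.4 and 64.8 CPM in DMSO libraries (log2 fold change -0.38, SE 0.08, adjusted p = 0.0252). Both calls were lost without any 1 library other than GSK126 replicate 3, at adjusted p-values up to 0.159 for Calr and 0.0839 for Erap1. The median of the list was 0.03.

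None of the 5 remaining immunoproteasome and PA28 activator genes passed edgeR's test, 1 was lower at an unadjusted p under 0.05, and DESeq2 and limma-voom called none. Their median log2 fold change was -0.14, and Psmb10 had 12.1, 9.64 and 10.4 CPM in GSK126 libraries and 12.8, 12 and 13.1 CPM in DMSO libraries (log2 fold change -0.24, SE 0.11, adjusted p = 0.228). Psme3, with the most reads of them, averaged 273 ± 6.09 CPM in GSK126 libraries and 302 ± 7.09 CPM in DMSO libraries (log2 fold change -0.14, adjusted p = 0.0659). Of the 14 constitutive proteasome core genes none passed edgeR's test, 3 were lower at an unadjusted p under 0.05, and the other tools called none. Psma1 had the most reads, at 156 ± 1.48 CPM in GSK126 libraries and 164 ± 5.79 CPM in DMSO libraries (log2 fold change -0.07, SE 0.04, adjusted p = 0.378). The median of that list was -0.02.

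Of 15 transcription regulators of class I genes, 13 were tested. Of these 3 rose, against 5.87% of all tested genes, and none fell. DESeq2 and limma-voom likewise called 3 higher and none lower, and at an unadjusted p under 0.05, 3 were higher and 2 lower. Rfxank, a subunit of the RFX complex that NLRC5 acts with, had 20.6, 21.3 and 21 CPM in GSK126 libraries and 15.3, 16.0 and 14.7 CPM in DMSO libraries. Its values were close within each group and far apart between them (log2 fold change 0.45, SE 0.08, edgeR adjusted p = 0.0133). Rfx5, the DNA-binding subunit, averaged 37.4 ± 4.27 CPM in GSK126 libraries and 28.3 ± 1.27 CPM in DMSO libraries (log2 fold change 0.40, SE 0.10, adjusted p = 0.0414). The remaining subunit, Rfxap, averaged 18.2 ± 1.10 CPM in GSK126 libraries and 17.7 ± 0.942 CPM in DMSO libraries, with a log2 fold change of 0.03 (SE 0.09).

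Stat2, a subunit of the factor that carries type I interferon signals to the nucleus, rose as well. It had 49.1, 43.7 and 49.3 CPM in GSK126 libraries and 36.9, 33.7 and 38.9 CPM in DMSO libraries, with no overlap. Stat2 averaged 47.4 ± 3.18 CPM in GSK126 libraries and 36.5 ± 2.64 CPM in DMSO libraries (log2 fold change 0.38, SE 0.08, edgeR adjusted p = 0.0318). Irf9, on the same list, had a log2 fold change of -0.09 (SE 0.07, edgeR adjusted p = 0.424). The Rfxank call was lost without DMSO replicate 1 or DMSO replicate 3 (adjusted p up to 0.0591). The calls of Rfx5 and Stat2 were lost without any 1 library other than GSK126 replicate 2 (up to 0.125 for Rfx5 and 0.108 for Stat2). Irf1, which interferon induces and which acts on class I promoters, had 15.9, 15.8 and 15.9 CPM in GSK126 libraries and 13.6, 19.3 and 17.5 CPM in DMSO libraries (log2 fold change -0.08, SE 0.13, adjusted p = 0.734). The class II activator Ciita, a relative of Nlrc5, had no read in GSK126 libraries and 1 read in DMSO replicate 2. Nfkb1, the tested regulator with the most reads, averaged 100 ± 3.24 CPM in GSK126 libraries and 113 ± 5.64 CPM in DMSO libraries (log2 fold change -0.18, SE 0.06, adjusted p = 0.0870). The median of the regulators was -0.06, with 6 of the 13 above 0.

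Of 12 interferon, receptor and JAK genes, 10 were tested. Of these 1 rose, against 5.87% of all tested genes, and none fell, and DESeq2 and limma-voom gave the same counts. At an unadjusted p under 0.05, 4 were higher, against 14.4% of all tested genes, and none lower. Ifnar1, a chain of the type I interferon receptor, had 89.9, 98.9 and 105 CPM in GSK126 libraries and 79.9, 76.0 and 81.0 CPM in DMSO libraries (log2 fold change 0.31, SE 0.07, edgeR adjusted p = 0.0309), a call lost without any 1 library other than GSK126 replicate 1 (adjusted p up to 0.110). Ifnar2, of the same receptor, had 31.9, 31 and 32.5 CPM in GSK126 libraries and 35.2, 34.5 and 34.2 CPM in DMSO libraries. Its log2 fold change was -0.12 (SE 0.06, edgeR adjusted p = 0.259). Jak1, with the most reads, averaged 243 ± 10.4 CPM in GSK126 libraries and 219 ± 2.70 CPM in DMSO libraries (log2 fold change 0.15, adjusted p = 0.0781). Ifng had no read in any library, and Ifnb1 had 1 read in all GSK126 libraries together and 2 in DMSO replicate 3.

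**Figure D3:**
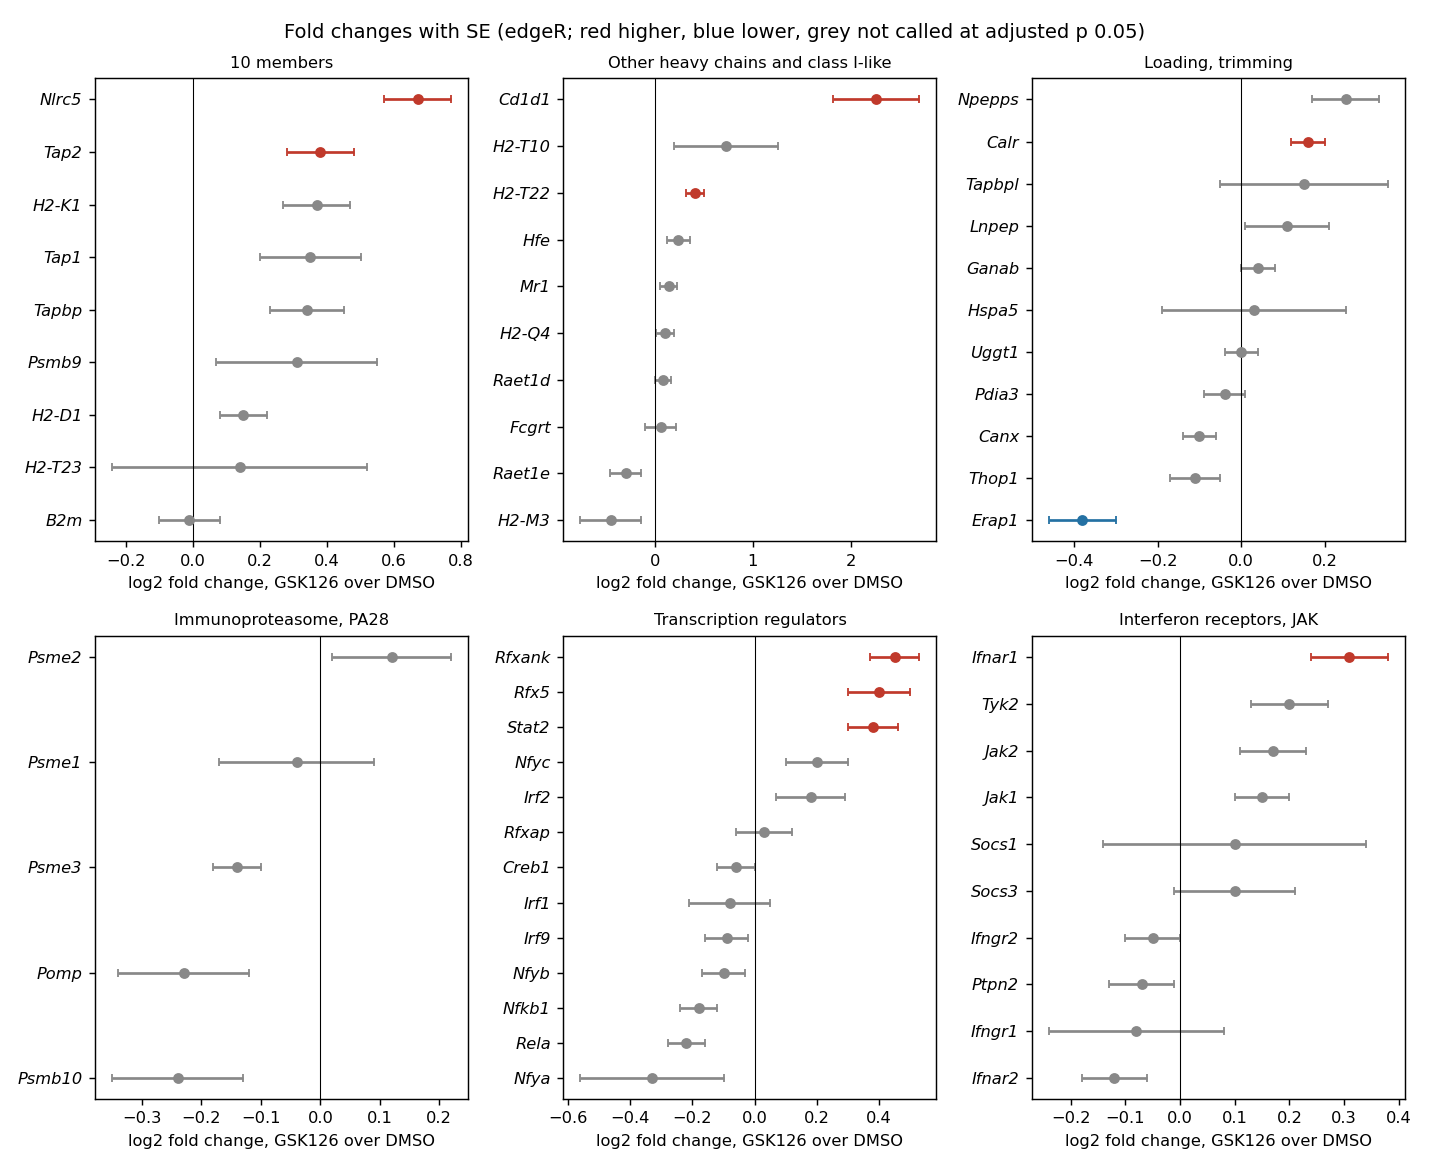
Log2 fold change (GSK126 over DMSO) with its SE for the tested class I genes and 5 related lists, red for higher, blue for lower and grey for not called at an adjusted p of 0.05. Axes differ between panels. Nlrc5 stands at 0.67 and B2m at -0.01 in the first panel, and among regulators Rfxank, Rfx5 and Stat2 are in red.

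Class II genes, which NLRC5's relative CIITA controls, were near 0: their summed reads over 7 genes were 56 to 68 in GSK126 libraries and 40 to 46 in DMSO libraries. Both tested genes missed the threshold in edgeR, 1 was higher at an unadjusted p under 0.05, and DESeq2 and limma-voom called none. H2-DMa had 13, 13 and 13 reads in GSK126 libraries and 6, 4 and 8 in DMSO libraries (log2 fold change 1.02, SE 0.33, adjusted p = 0.0956), and H2-DMb1 had 31, 34 and 36 reads in GSK126 libraries and 29, 40 and 29 in DMSO libraries. Of 9 genes known to act on class I turnover, 8 were tested and none was called by edgeR, DESeq2 or limma-voom or had an unadjusted p under 0.05. Tmem127, with the most reads, averaged 112 ± 5.12 CPM in GSK126 libraries and 110 ± 2.86 CPM in DMSO libraries.

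Of the class I genes, 8 lie on chromosome 17 between positions 33915899 and 36032855, within the mouse MHC. The other 75 tested genes of that interval had a median log2 fold change of -0.01, with 3 of them (4%) higher and 5 (6.67%) lower, against 5.87% and 5.18% of all tested genes.

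**Figure D4:**
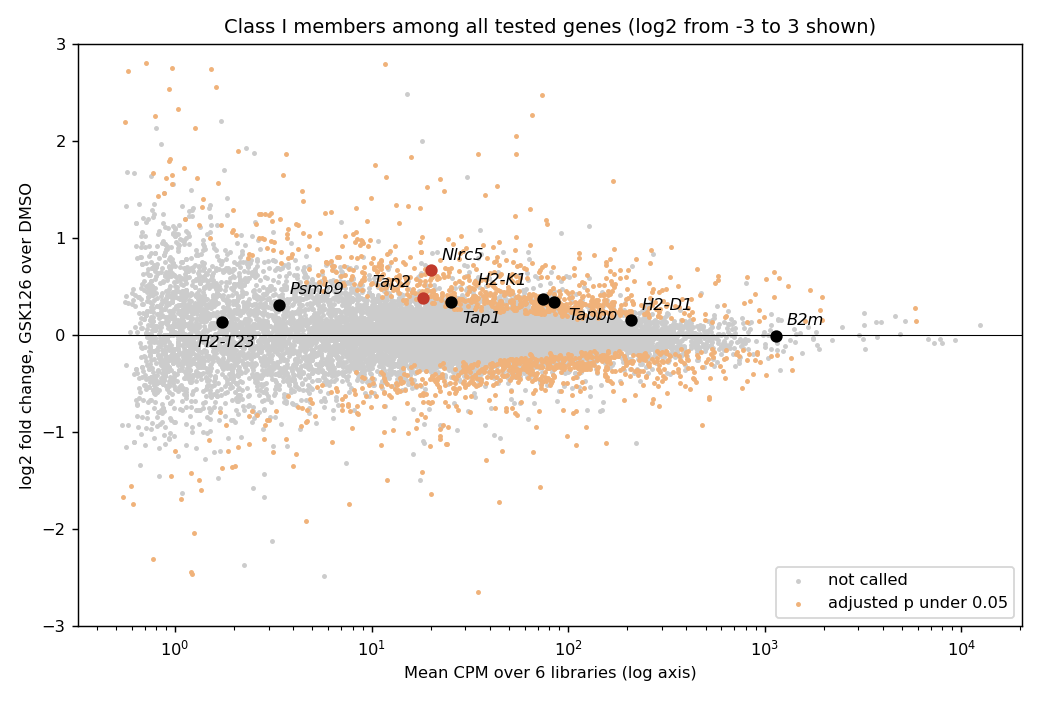
Log2 fold change (GSK126 over DMSO) against mean CPM over the 6 libraries (log axis) for all tested genes, orange where the adjusted p is under 0.05. The 9 tested class I genes are large points, red for the called Nlrc5 and Tap2 and black for the rest; 7 genes lie beyond the plotted range.

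The strength of each call was followed across tools, filters and libraries. H2-K1 and Tapbp, which did not pass, and Tap2, which did, had nearly equal log2 fold changes of 0.34 to 0.38 with SE values of 0.10 to 0.11, and the threshold fell between them. Nlrc5 was the 1 class I gene called in every one of the 6 fits with 1 library left out and the 11 other alternatives, with a log2 fold change of 0.40 on the FPKM + 1 scale, which shrinks low levels, and of 0.60 to 0.75 with 1 library left out. The sign changed with a left-out library for H2-T23 (-0.21 to 0.44) and B2m (-0.07 to 0.08), and for no other tested class I gene.

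**Figure D5:**
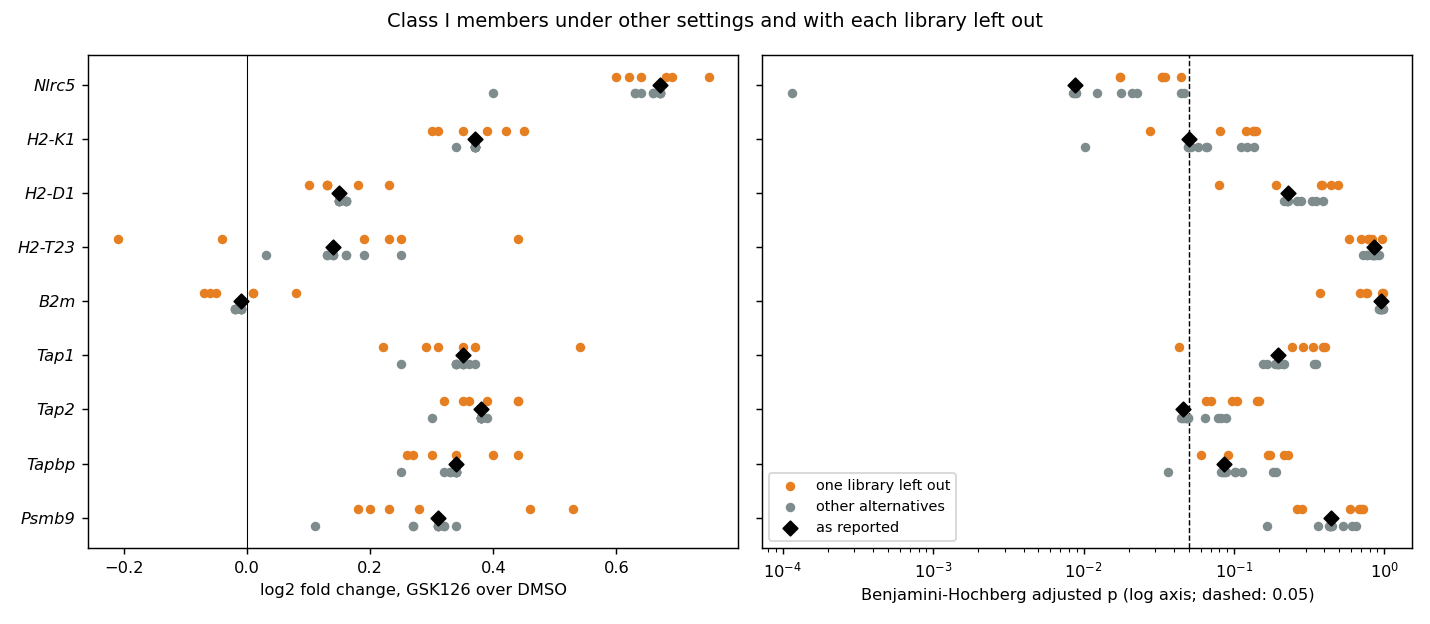
Log2 fold change (left) and adjusted p (right, log axis, dashed at 0.05) of the 9 tested class I genes as reported (black), with 1 library left out (orange) and under the other alternatives (grey). All Nlrc5 points lie left of the dashed line, while those of H2-K1, Tap1, Tap2 and Tapbp fall on both sides.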

How the data were processed

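RNA was taken from 6 samples of B16F10 cells, 3 GSK126 and 3 DMSO, grouped by the treatment label. Base calling used CASAVA 1.8 and alignment HISAT2, with GRCm38.p4 (mm10) as the genome, per the submitters' processing notes. For counting, the tool, annotation and strand setting are not stated in the sources used here. The authors deposited raw read counts for 54838 genes, and FPKM of the same libraries, which are the same counts on another scale (over 10025 genes, the FPKM per count differed between libraries by a ratio of at most 1.000009).

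The counts were tested with edgeR 4.0.16 under R 4.3.3 (filterByExpr, TMM, quasi-likelihood F test, Benjamini-Hochberg over 13601 genes). SE values and 95% intervals follow from the F statistic and its degrees of freedom. CPM use TMM-scaled library sizes (factors 0.9937 to 1.007). DESeq2 1.42.0 and limma 3.58.1 were alternatives, as were other normalisations and filters, FPKM with a pseudocount of 0.1 or 1, each library left out, and counts summed with genes sharing exons. The coefficient of biological variation came to 0.119. The fit was tested on simulated data. Chi-square statistics between replicates exceeded their degrees of freedom by 7.51 to 14.2 times, above counting noise in each pair. Counts limit the precision of genes with few reads.

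The class I genes and the related lists were chosen with earlier results of these data known. A further regulator is not reported here. Named by rule were all 10 genes, the core PRC2 genes, of each list up to 5 genes past the threshold by smallest p and the tested one with the most reads, genes sharing exons, and Ciita and Irf1. Other genes were named outside this rule, among them Rfxap, Irf9, Ifnar2, Psmb10, H2-DMa, Ptprc, Ifng and Ifnb1. GENCODE M21 gave exon lengths and RefSeq the promoter windows, and Nlrc5 and Tap2 had none.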

Additional observations from a re-analysis of the deposited data

How the results depend on the processing

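The number of genes changed, 1503 as reported, was 899 without a filter on low counts, 889 on log2(FPKM + 0.1) over every gene above 0, 408 with the replicate number as a block, and 529 to 1243 with 1 library left out. The number of class I genes higher, 2 as reported, was 1 under the same 3 settings and 1 to 2 with 1 library left out. It was 3 in DESeq2, with DESeq2's size factors in edgeR and with a 1 CPM filter. The genes differed too, since DESeq2 called Nlrc5, H2-K1 and Tapbp but not Tap2. The summed heavy chains passed in DESeq2 (log2 fold change 0.22, adjusted p = 0.0491) and without H2-D1 (0.29, adjusted p = 0.0399), and otherwise not. H2-K1 passed in DESeq2 (0.0103), with DESeq2's size factors in edgeR and with a 1 CPM filter (0.0498 each). The causes were not tested. Deviations of same-numbered libraries correlated at 0.067, 0.021 and -0.042, and those of differently numbered ones at -0.102 to 0.08. These values gave no sign of pairing by replicate number but cannot show that the samples were unpaired. With the block in edgeR, Nlrc5 was called (adjusted p = 0.0444) and Tap2 was not (0.0881). No called result changed direction under any alternative run. Apart from left-out libraries, 10 alternatives were run for Calr, Rfx5, Rfxank, Erap1, H2-T22, Stat2 and Ifnar1. The call was lost in 6 of them for Calr and in 5 for Rfx5. It was lost in 3 for each of Erap1, H2-T22, Stat2 and Ifnar1. Rfxank was lost only with the replicate block, as was Cd1d1 over 9 alternatives. Merged-exon lengths, added after the data were seen, moved the DMSO level of 8 of the 10 genes and left the order B2m, H2-D1 at the top. Depth limits Psmb8, H2-T23, Psmb9, Cd1d1 and the class II genes, each with at most 64 reads in a library.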

Other observations

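Single libraries departed from the other 5 for some abundant genes. Among 4872 genes of at least 50 CPM, 39 were below 0.65 of every other library in GSK126 replicate 3, while the same held for 9 to 14 genes in each of the other libraries. None of the 10 class I genes was among them. The PRC2 subunit Suz12 had 131 CPM in GSK126 replicate 3 and 245 to 263 CPM elsewhere, the NF-Y subunit Nfya, which binds the CCAAT motif, had 33 CPM in GSK126 replicate 2 and 63.4 to 68.1 CPM elsewhere, and the chaperone Hspa5 had 1140 CPM in DMSO replicate 2 and 1830 to 2190 CPM elsewhere. These genes were named after their values were seen.

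The promoter window of the non-classical class I gene H2-M3 also held TGACG and ATTGG 25 bases apart, with B2m, H2-D1 and H2-K1. The pair was not confined to class I genes: it was found for 26 of the 27025 genes with a window. Of these 18 were tested, none was called higher, and 2, Ghitm and Hnrnpf, were called lower (5.87% and 5.18% of all tested genes). H2-M3 averaged 0.992 ± 0.157 CPM in GSK126 libraries and 1.36 ± 0.427 CPM in DMSO libraries (SD, n = 3 each; log2 fold change -0.45, SE 0.31, edgeR adjusted p = 0.398).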
